A study of Mus musculus with 60 samples.

Results

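The liver 3 days after 2/3 partial hepatectomy (PHX-D3) was compared with normal liver of the same strain, 3 samples of each, which are 6 of the 60 samples of the series and 6 of its 18 samples of whole liver. Partial hepatectomy is the removal of liver lobes, here 2/3 of the organ, after which the lobes left in place grow back. All 6 samples were liver of wild type (WT) mice, C57BL/6 by the labels and C57BL/6J by the study's methods. The operated mice were 8 to 10 weeks old by the study's methods. The PHX-D3 mice were killed 3 days after the operation, and normal liver carries no time and no operation in its labels. No sham-operated liver was analysed here, so the loss of tissue cannot be told apart from surgery, anaesthesia and any change of feeding. The labels do not say whether the 3 samples of a group came from separate mice, so the spread between them may be technical. Messenger RNA was sequenced, and the values are FPKM, fragments counted on a gene relative to the length of its transcript and to all mapped fragments. A gene was taken in when it had at least 1 FPKM in 3 or more of the 6 samples, which left 10304 of 17473 genes.

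Hepatocytes of the adult liver rarely divide, and after partial hepatectomy most of those that remain enter the cell cycle, copy their DNA and divide while they go on serving the body. Cytokines released early, IL6 among them, act through the shared receptor subunit gp130 and the transcription factor STAT3 and raise the acute phase proteins, which the liver secretes in injury and infection. Cell cycle genes come on in order, with genes of DNA synthesis under E2F factors and genes of mitosis later, under B-MYB and FOXM1. Promoters of the mitosis genes often carry the cell cycle genes homology region (CHR), together with CCAAT boxes bound by NF-Y.

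PHX-D3 replicate 2 stood apart from the other 5 samples. It differed at least 2-fold from both other replicates of its group in 10.7% of the genes tested, 468 of them higher and 630 lower, whereas the same share was between 0.155% and 1.03% in the other 5 samples. Its correlation across genes, on log2(FPKM + 1), was 0.898 with PHX-D3 replicate 1 and 0.875 with replicate 3, against 0.983 between those 2. It was 0.883 to 0.917 with samples taken 24 h and 0.887 to 0.912 with samples taken 6 h after the operation. These ranges overlap that with its own group. Genes are not independent replicates, and these correlations are a description. The comparison with normal liver is therefore given with all 6 samples and again without replicate 2. Reads on genes, recovered from the deposited values, numbered between 52.7 and 74.9 M (mega) per sample, and replicate 2 had 57.6 M. Replicates of 1 group differed by more than sampling noise in every pair, which technical repeats of a library could also do. The tissue label fitted the hepatocyte markers in all 6 samples. Alb (albumin) was at 35611, 40900 and 33690 FPKM in normal liver and at 34331, 21866 and 53347 FPKM in PHX-D3, and none of the 8 hepatocyte markers passed the test. In whole liver, fewer cells of a type and less RNA per cell cannot be told apart.

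A gene was called changed when its adjusted p in limma (Benjamini-Hochberg, over the 10304 genes) was under 0.05 and its mean differed at least 2-fold on log2(FPKM + 1). With all 6 samples, 188 genes (1.82% of those tested) were higher and 114 genes (1.11%) lower in PHX-D3, 302 (2.93%) in all. Without replicate 2, 307 genes (2.98%) were higher and 167 (1.62%) lower, 474 (4.6%) in all. Of these, 162 were called higher and 87 lower both ways, 53 were called with 6 samples only, 225 were called without replicate 2 only, and 0 changed direction. With no test, the 3 PHX-D3 values lay above all normal livers in 2019 genes (19.6%) and below them in 2129 (20.7%), and in 370 (3.59%) and 297 (2.88%) of these the means were also at least 2-fold apart. The calls with 6 samples were easily lost. Leaving out normal liver replicate 1, 2 or 3 left 0, 2 or 6 genes, and leaving out PHX-D3 replicate 1 left 44. The calls without replicate 2 stayed between 416 and 572 genes when any further sample was left out, although the number of lower genes reached 263 without PHX-D3 replicate 3. In what follows, rose and fell are used of genes called with all 6 samples, and a gene called without replicate 2 only is described as such. Each count of called members of a list stands against the shares of all genes tested. These were 1.82% higher and 1.11% lower with 6 samples, and 2.98% and 1.62% without replicate 2. The 6 values of a gene are given as FPKM for normal liver 1, 2 and 3 and then for PHX-D3 1, 2 and 3. The change is the difference of the group means on log2(FPKM + 1) with its standard error (SE).

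The lists of genes moved in both directions. Mitosis genes, acute phase proteins and, less, genes of DNA replication were higher in PHX-D3, and major urinary proteins, male-biased liver genes and MHC class II genes were lower, each in all 3 PHX-D3 samples by the median of the list. Cytochrome P450, phase II conjugation, urea cycle and pericentral genes lay much lower in replicate 2 than in the other 2 replicates. Over all genes tested the median change was -0.01, and -0.02 without replicate 2.

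**Figure D1:**
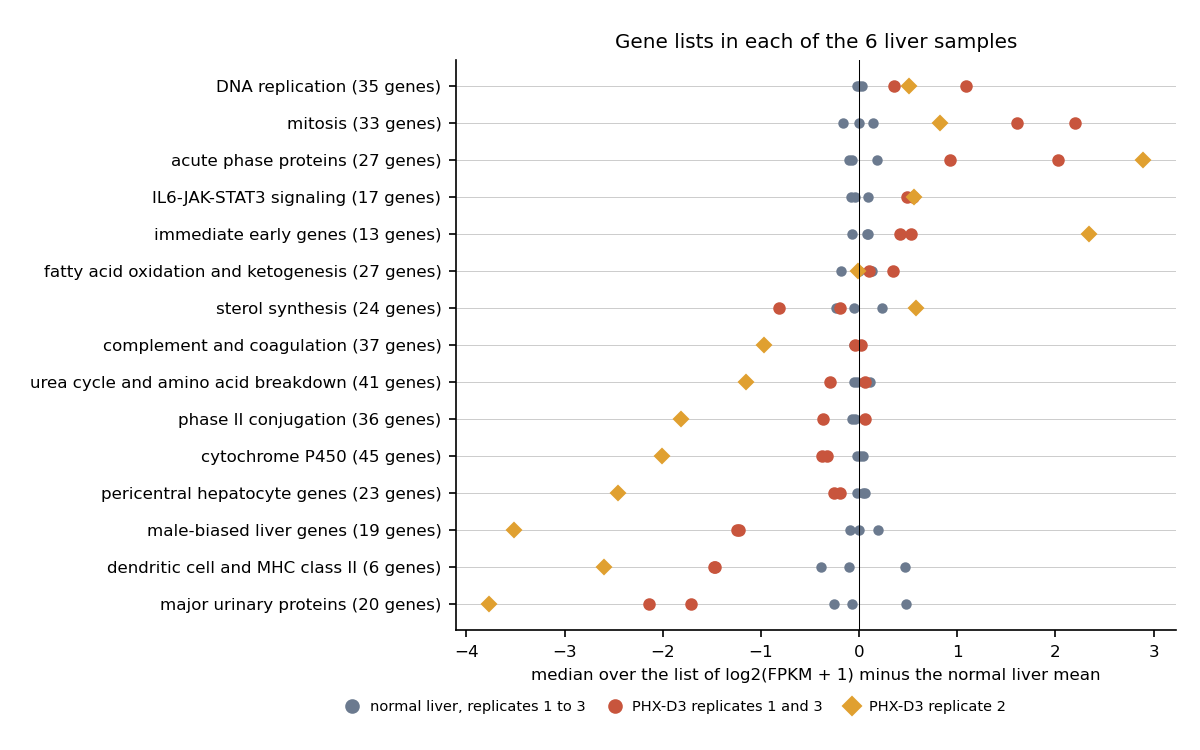
Median over each list of log2(FPKM + 1) minus the mean of the 3 normal livers, by sample, for the members that passed the filter. Mitosis genes lay at 1.61, 0.83 and 2.20 in PHX-D3 replicates 1, 2 and 3, and pericentral hepatocyte genes at -0.19, -2.45 and -0.26.

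Genes of mitosis were the most evenly raised group. Of the 47 genes of the list, 45 were higher in each PHX-D3 sample than in every normal liver, counted with no filter, as against 16.4% of all 17473 genes, and 1 was lower in each. Of the 33 that passed the filter, 18 rose and 1 fell (1.82% and 1.11% of all genes), and 31 were called higher and 1 lower without replicate 2 (2.98% and 1.62%). Of these 33, 19 passed through their PHX-D3 values alone, with under 1 FPKM in every normal liver, so that they had to differ. Among the 14 that passed with a normal liver sample, 5 rose and 12 were called higher without replicate 2. The median change of all 47 was 1.25, and 1.53 without replicate 2. Replicate 2 had the lowest of the 3 PHX-D3 values in 32 of the 33 that passed.

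Ube2c, the ubiquitin-conjugating enzyme of the anaphase-promoting complex (chr2:164769898-164778822), was at 2.39, 0.789 and 1.67 FPKM in normal liver and at 16.5, 9.03 and 21.7 FPKM in PHX-D3. Its groups did not overlap, and it rose by 2.65 (SE 0.35, adjusted p = 0.0237), or 2.98 without replicate 2 (SE 0.25, adjusted p = 0.000161). Ccnb1, cyclin B1, which drives entry into mitosis with Cdk1 (chr13:100778650-100786570), was at 0.694, 0.17 and 0.41 FPKM and then at 6.31, 2.95 and 10.3 FPKM. It rose by 2.29 (SE 0.37, adjusted p = 0.0317), or 2.69 without replicate 2 (SE 0.22, adjusted p = 0.000138). Its kinase Cdk1 was near 1 FPKM in normal liver, from 0.953 to 1.23 FPKM, and at 7.57, 3.44 and 10.4 FPKM in PHX-D3. Mki67, the gene of the proliferation marker Ki67, was between 0.269 and 0.529 FPKM and then at 4.62, 2.12 and 8.4 FPKM. Both rose, by 1.88 (Cdk1) and 1.98 (Mki67), and in both replicate 2 had the lowest of the 3 PHX-D3 values. Ccnb1 and Mki67 had passed the filter through PHX-D3 alone. Cdc20, an activator of the anaphase-promoting complex, was at 3.02, 0.764 and 1.98 FPKM and then at 12.1, 3.45 and 22.1 FPKM, and was called without replicate 2 only (adjusted p = 0.0882 with 6 samples and 0.00115 without it). The exception was Pttg1, securin, the inhibitor of separase. It fell from 28.5, 31.7 and 27.5 FPKM to 11.3, 8.95 and 13.7 FPKM, a change of -1.31 (SE 0.18, adjusted p = 0.0252).

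Fewer genes of DNA replication were called. Of 44 genes, 27 were higher in each PHX-D3 sample than in every normal liver and 1 was lower in each, as against 16.4% and 14.3% of all 17473 genes. Of the 35 that passed the filter, 5 through PHX-D3 alone, 9 rose and 0 fell (1.82% and 1.11% of all genes), and 11 were called higher without replicate 2 (2.98%). Among the 30 that passed with a normal liver sample, 6 rose and 7 were called higher without replicate 2. The median over all 44 was 0.48, and 0.60 without replicate 2. Rrm2, the regulatory subunit of ribonucleotide reductase, which makes the DNA building blocks (chr12:24708241-24714146), was at 3.27, 1.32 and 2.76 FPKM and then at 8.42, 14.2 and 20.4 FPKM. It rose by 2.12 (SE 0.35, adjusted p = 0.033), or 2.09 without replicate 2 (SE 0.34, adjusted p = 0.00413). Gins2, a subunit of the replicative helicase, was at 0.8, 0.777 and 0.815 FPKM and then at 4.01, 5.47 and 7.41 FPKM, a rise of 1.85 both ways (adjusted p = 0.0174 and 0.000693), though it passed the filter through PHX-D3 alone. Unlike the mitosis genes, both were higher in replicate 2 than in replicate 1. The helicase subunits Mcm2, Mcm5 and Mcm6, the DNA ligase Lig1 and the methylation reader Uhrf1 also rose, by 1.32, 1.52, 1.46, 1.32 and 1.56, Uhrf1 having passed through PHX-D3 alone. Mcm10 and Tk1 did not follow them with 6 samples. Mcm10 was at 17.8, 28.3 and 30.4 FPKM in normal liver and at 8.66, 0.631 and 17.4 FPKM in PHX-D3 (change -1.97, adjusted p = 0.163). Tk1, thymidine kinase, was at 15.8, 21.9 and 18.5 FPKM and then at 20.5, 4.64 and 40.5 FPKM (-0.19, adjusted p = 0.864). In Tk1 only replicate 2 lay below the normal livers, while replicate 1 lay within their range and replicate 3 above it.

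The promoters of genes with the largest rises in these lists are shown so that the letters searched for, and where they are missing, can be seen. The windows run from 250 bases before to 50 bases after the annotated start of the transcript, 5′ to 3′ on the strand of the gene, from RefSeq on GRCm38.p6. Capitals mark matches to any of 4 motifs, searched on both strands. These are the CHR as TTTGAA or TTCGAA, the NF-Y box as CCAAT, the E2F site as TTTCCCGC, TTTGGCGC, TTCCCGCC or TTGGCGCC, and the STAT site as TTCCNGGAA, where N is any base. The first 2 are genes of mitosis, Ube2c at chr2:164769679-164769978 on the plus strand and Ccnb1 at chr13:100786437-100786736 on the minus strand. The other 2 are genes of DNA replication, Rrm2 at chr12:24708004-24708303 and Uhrf1 at chr17:56303087-56303386, both on the plus strand. Gins2, which rose more than Uhrf1, has no entry in the table.
Ube2c: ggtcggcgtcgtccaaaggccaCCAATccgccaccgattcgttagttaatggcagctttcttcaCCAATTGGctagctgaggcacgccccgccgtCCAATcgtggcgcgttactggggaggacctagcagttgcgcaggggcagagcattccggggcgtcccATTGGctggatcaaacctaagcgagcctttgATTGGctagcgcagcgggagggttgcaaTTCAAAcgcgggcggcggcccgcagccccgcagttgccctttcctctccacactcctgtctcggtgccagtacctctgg
Ccnb1: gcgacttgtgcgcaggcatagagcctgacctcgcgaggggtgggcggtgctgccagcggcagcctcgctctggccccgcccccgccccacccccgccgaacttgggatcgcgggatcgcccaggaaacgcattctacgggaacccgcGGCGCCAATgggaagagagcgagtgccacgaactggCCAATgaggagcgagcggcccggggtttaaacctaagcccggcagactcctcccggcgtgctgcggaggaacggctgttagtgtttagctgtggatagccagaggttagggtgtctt
Rrm2: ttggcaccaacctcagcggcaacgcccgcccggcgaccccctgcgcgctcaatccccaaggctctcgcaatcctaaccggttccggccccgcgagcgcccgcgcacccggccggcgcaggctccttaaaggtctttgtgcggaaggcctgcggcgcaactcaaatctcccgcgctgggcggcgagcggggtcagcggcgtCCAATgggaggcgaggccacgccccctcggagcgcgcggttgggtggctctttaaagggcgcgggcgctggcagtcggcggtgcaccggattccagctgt
Uhrf1: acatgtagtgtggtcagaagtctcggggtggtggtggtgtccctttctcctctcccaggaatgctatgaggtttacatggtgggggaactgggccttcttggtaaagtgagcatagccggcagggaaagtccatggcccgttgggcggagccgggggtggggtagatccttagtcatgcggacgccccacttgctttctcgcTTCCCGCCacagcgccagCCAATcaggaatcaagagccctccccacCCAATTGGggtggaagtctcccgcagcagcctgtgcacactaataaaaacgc
Ube2c held 1 CHR match, which starts 29 bases before the annotated start, and 6 matches to the NF-Y box, of which a pair on opposite strands overlap. Ccnb1 held no CHR match in this window and had 2 NF-Y boxes, the first of which overlaps its 1 E2F match. Rrm2 held 1 NF-Y box, 50 bases before the start, and no E2F match by these letters. Uhrf1, for which this is 1 of 2 listed promoters, held 3 matches to the NF-Y box, of which a pair overlap, and 1 E2F match, 48 bases before the start.

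The motifs were spread unevenly over the lists. A CHR stood in 34 of the 42 promoters of the mitosis list (81%), as against 19.2% of all 32851 promoters and 13.9% of those of the genes tested. The NF-Y box stood in 76.2% of the mitosis promoters, against 37.4% of all. E2F matches were in 18 of the 40 promoters of the DNA replication list (45%) and in 11.9% of mitosis promoters. The share was 3.77% of all promoters and 6.63% of those of the genes tested. The 23 promoters of acute phase proteins held a CHR in 1, an E2F match in 1 and a STAT match in 2 (8.7%, against 1.15% of all promoters). Of the 46 cytochrome P450 promoters, 16 (34.8%) held a CHR and 0 a STAT match. Among the genes called higher with 6 samples, 21.9% of 169 promoters held a CHR and 10.1% an E2F match, and among those called lower 18.3% and 3.52% of 142. For the genes tested these shares were 13.9% and 6.63%. The table held promoters for 40 of the 47 mitosis genes, 34 of the 44 DNA replication genes, 22 of the 28 acute phase proteins and 41 of the 51 cytochrome P450 genes, and a gene can have several, which overlap. A match is a run of letters and not a measured site, and the STAT and E2F letters are stricter than the sequences these factors can bind.

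**Figure D2:**
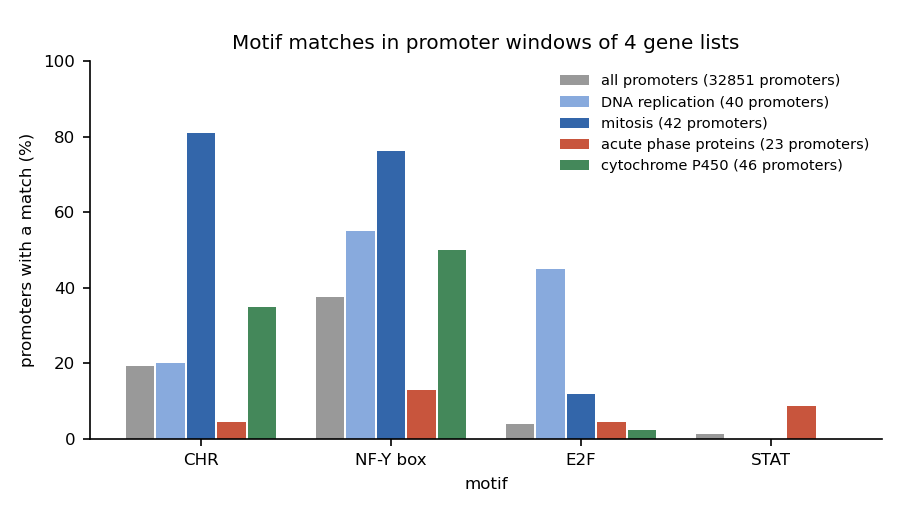
Share of promoter windows with at least 1 match to each motif, in percent, for all promoters of the table and for 4 gene lists. The CHR was in 81% of the mitosis promoters and 19.2% of all promoters, and E2F matches in 45% of the DNA replication promoters and 3.77% of all.

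Of the cyclins, kinases and inhibitors of the G1 phase, 3 of the 19 that passed rose, and 6 were called higher without replicate 2. Cdkn1a, the kinase inhibitor p21 and a target of p53, rose most. It was at 2.34, 0.827 and 1.64 FPKM and then at 18.6, 81.3 and 13 FPKM, a rise of 3.48 (SE 0.63, adjusted p = 0.0359), or 2.71 without replicate 2 (adjusted p = 0.000254). Ccnd1, cyclin D1, the sensor of growth signals in G1, was at 9.46, 5.71 and 7.17 FPKM and then at 13.1, 23.6 and 20.9 FPKM, a rise of 1.24 (adjusted p = 0.0442). Gadd45b, a stress-induced growth regulator, rose by 1.17. Without replicate 2, Cdkn2c, the inhibitor p18, which was at 14.3 and 18.3 FPKM in PHX-D3 replicates 1 and 3 and at 4.18 FPKM in replicate 2, was called too (1.59, adjusted p = 0.000426), as were Rbl1 and Btg2.

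The study followed 4 transcription factors in culture, and 2 of them rose here. They were picked in part on these samples, so their direction is not independent evidence. The study took factors raised at 6 h, 24 h or day 3 after the operation that were also raised in its cultures with IL6. A rise on day 3 itself was therefore not required of each. Foxm1, which drives the mitosis genes (chr6:128362967-128376146), was at 0.283, 0.0862 and 0.115 FPKM and then at 2.16, 1.03 and 3.57 FPKM, a rise of 1.41 (SE 0.29, adjusted p = 0.0425), or 1.71 without replicate 2 (adjusted p = 0.000542). Mxd3, a partner of MAX expressed in dividing cells (chr13:55325168-55329823), was at 0.245, 0.221 and 0.359 FPKM and then at 2.07, 1.5 and 3.32 FPKM, a rise of 1.33 (SE 0.21, adjusted p = 0.0317). Both passed the filter through PHX-D3 alone. Barx2 and Elf3 did not pass it. Barx2, a homeobox factor, was listed at 0 in all 3 normal livers and at 0.0149, 1.63 and 0 FPKM in PHX-D3, and Elf3, an epithelial ETS factor, was between 0.204 and 0.334 FPKM and then at 0.549, 2.63 and 0.452 FPKM. For both, the value over 1 FPKM was that of replicate 2. Mybl1, a relative of B-MYB, also rose (1.14, adjusted p = 0.0259), and it too passed through PHX-D3 alone. Myc was at 2.42, 22 and 4.82 FPKM in PHX-D3, against 1.41 to 1.9 FPKM in normal liver, and was called neither way.

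Acute phase proteins included the largest rises of all genes tested. Of the 28, 27 passed the filter, 1 of them through PHX-D3 alone. Of the 27, 12 rose and 0 fell, and 17 were called higher without replicate 2. Among the 26 that passed with a normal liver sample, 11 rose and 16 were called higher without replicate 2. The median change of the 27 was 1.85, or 1.5 without replicate 2. By sample it was 2.02, 2.89 and 0.93 in PHX-D3 replicates 1, 2 and 3, so that replicate 3 was the lowest here. Lcn2, lipocalin 2, which binds bacterial siderophores (chr2:32384633-32388252), was at 4.64, 3.72 and 7.68 FPKM and then at 1710, 6557 and 331 FPKM, a rise of 7.98 (SE 0.97, adjusted p = 0.0225), or 6.94 without replicate 2 (SE 0.54, adjusted p = 0.000129). Saa2, serum amyloid A2, was at 28.4, 23.3 and 78.5 FPKM and then at 8317, 6297 and 787 FPKM, a rise of 6.49 (SE 0.92, adjusted p = 0.027). Its neighbour Saa1 (chr7:46740497-46742980) rose by 5.12 and Orm2, an orosomucoid, by 5.25. Saa1 and Saa2 are close copies of each other, and so are the Orm genes, so reads may have been split between them.

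The metallothioneins Mt1 and Mt2, which bind zinc and copper, are counted in that list and rose in all 3 PHX-D3 samples. Mt2 was at 2.92, 3.68 and 4.6 FPKM and then at 706, 2022 and 434 FPKM, a rise of 7.51 (SE 0.52, adjusted p = 0.00602). Mt1 was at 12.3, 20.3 and 16.9 FPKM and then at 1284, 3047 and 602 FPKM, a rise of 6.28 (SE 0.55, adjusted p = 0.0103). Slc39a14, the zinc importer ZIP14, was steady within each group, between 20.3 and 23.6 FPKM and then between 62.4 and 66.4 FPKM, and rose by 1.5 (SE 0.14, adjusted p = 0.0103). Serpina3n, Serpina3m, Apcs, Orm3, Steap4 and Itih4 rose by 1.61 to 2.67, and Hpx, Itih3, Orm1, Lrg1 and Saa4 were called without replicate 2 only. Hp, haptoglobin, was at 2012, 2340 and 2622 FPKM and then at 10344, 9374 and 3165 FPKM, and did not pass the test either way (adjusted p = 0.0979 and 0.0512).

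Of 17 genes of the IL6 pathway that passed, 3 rose and 0 fell. Stat3 was at 26.0, 22.0 and 25.9 FPKM and then at 59.7, 67.4 and 45.6 FPKM, a rise of 1.18 (SE 0.19, adjusted p = 0.0314). Il6st, which encodes gp130, was at 15.7, 12.8 and 13 FPKM and then at 33.4, 32.5 and 25.2 FPKM, a rise of 1.07 (SE 0.17, adjusted p = 0.0313). In both, all 3 PHX-D3 samples were above all 3 normal livers. Cebpd, C/EBP delta, which acts with STAT3 on acute phase genes, rose by 1.53 (adjusted p = 0.0497), with replicate 2 at 16.4 FPKM and the others at 6.34 and 6.72 FPKM. Il6ra, the IL6-binding subunit, was called without replicate 2 only (1.69, adjusted p = 0.0115). Socs3, the feedback inhibitor, was at 20.2, 28.6 and 5.29 FPKM against 3.38 to 6.33 FPKM in normal liver and was called neither way.

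Of the 10 largest rises with groups that did not overlap, 6 were acute phase proteins and the others were Ly6d, Cdkn1a, D17H6S56E-5 and Isyna1. Ly6d, a GPI-anchored surface protein, was at 0.818, 1.63 and 0.825 FPKM and then at 75.4, 411 and 12.4 FPKM, a rise of 5.19 (SE 1.09, adjusted p = 0.0442). Isyna1, the synthase that makes inositol phosphate from glucose 6-phosphate, was at 5.62, 4.35 and 7.89 FPKM and then at 148, 32.8 and 44.3 FPKM, a rise of 3.17 (SE 0.53, adjusted p = 0.0347). D17H6S56E-5 was at 3.35, 1.06 and 1.5 FPKM and then at 35, 10.5 and 58.2 FPKM, a rise of 3.37 (adjusted p = 0.0348). In D17H6S56E-5 and Isyna1 replicate 2 had the lowest of the PHX-D3 values, and in Ly6d it had the highest.

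**Figure D3:**
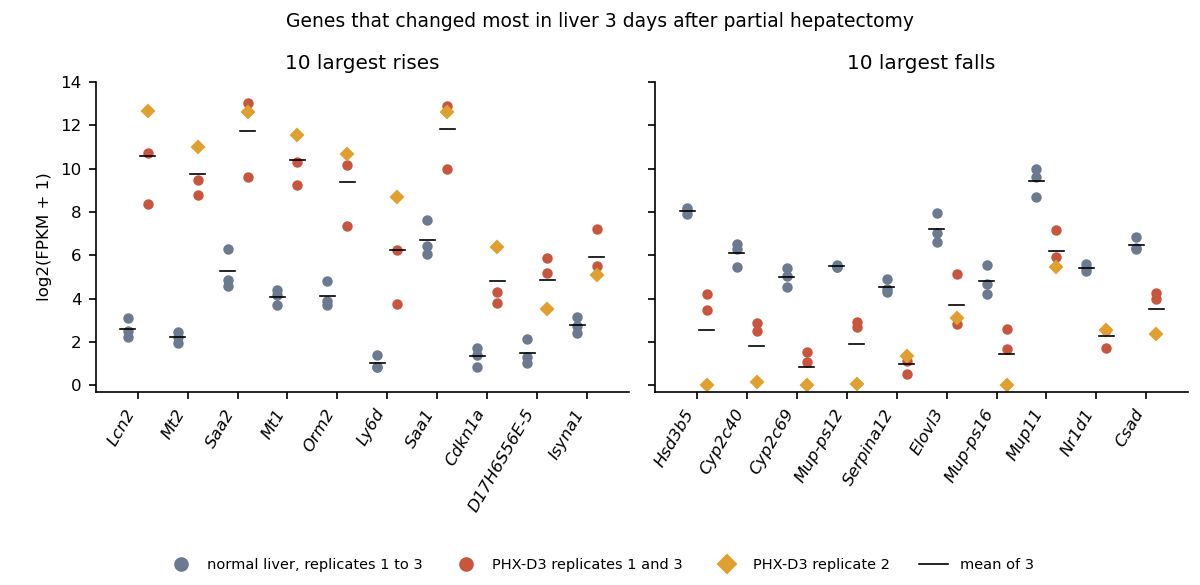
The 10 genes with the largest rises and the 10 with the largest falls among called genes whose groups did not overlap, as log2(FPKM + 1) in each sample, with the mean of 3 as a bar. Lcn2 went from at most 7.68 FPKM in normal liver to at least 331 FPKM, and Hsd3b5 from at least 242 FPKM to at most 17.4 FPKM.

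The largest fall was in Hsd3b5, and it and several others belong to the genes that the liver of male mice expresses more than that of females. Of the 19 male-biased genes that passed, 0 rose and 6 fell, and 12 were called lower without replicate 2 (1.11% and 1.62% of all genes). Their median was -1.24, -3.51 and -1.22 in PHX-D3 replicates 1, 2 and 3. Hsd3b5, a steroid dehydrogenase found in the male liver (chr3:98618634-98630252), was at 242, 285 and 274 FPKM and then at 17.4, 0 and 10.2 FPKM, a change of -5.50 (SE 0.99, adjusted p = 0.0353), or -4.22 without replicate 2 (SE 0.21, adjusted p = 1.56e-05). Elovl3, a fatty acid elongase, was at 250, 97.9 and 130 FPKM and then at 34.0, 7.5 and 6.24 FPKM, a change of -3.52 (SE 0.64, adjusted p = 0.0355). Cyp4a12a, a fatty acid hydroxylase, was at 159, 150 and 128 FPKM and then at 32.4, 22.8 and 15.1 FPKM, a change of -2.64 (SE 0.27, adjusted p = 0.0149), and here replicate 2 lay between the other 2. Slco1a1, an organic anion importer, was at 159, 175 and 110 FPKM and then at 38.0, 0.696 and 31.9 FPKM, and was called without replicate 2 only (adjusted p = 0.0988 and 0.00039).

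Major urinary proteins, pheromone carriers that the male liver secretes in bulk, lay lower as a family. Of the 20, 0 rose and 7 fell, and 12 were called lower without replicate 2. The change was negative in all 20 both ways, and 14 of the 20 were lower in each PHX-D3 sample than in every normal liver (14.3% of all 17473 genes). Mup3 was at 13236, 14397 and 11491 FPKM and then at 3435, 950.5 and 2001 FPKM, a change of -2.80 (SE 0.49, adjusted p = 0.0347). Mup20, also called darcin, was at 4449, 3194 and 3876 FPKM and then at 959, 334 and 655 FPKM, a change of -2.68 (adjusted p = 0.0306). Mup10 (chr4:60578260-60582199) fell by 2.84 (SE 0.23, adjusted p = 0.00794), with replicate 2 at 24.4 FPKM and the others at 21.8 and 37.5 FPKM. The pseudogenes Mup-ps12 and Mup-ps16 fell by 3.60 and 3.38. Mup genes are nearly identical to each other and reads are easily split among them, so the values of single members are uncertain.

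Female-biased genes did not move as the mirror image. Only 9 of 22 passed the filter, 3 rose and 2 fell, and 5 were called higher and 2 lower without replicate 2. Acot3, a peroxisomal acyl-CoA thioesterase, was at 0.384, 1.14 and 0.134 FPKM and then at 11.9, 6.48 and 6.54 FPKM, a rise of 2.58 (SE 0.31, adjusted p = 0.0214). Acot4, of the same gene cluster, rose by 1.80 (adjusted p = 0.0256) and Cyp17a1, a steroid hydroxylase, by 1.27 (adjusted p = 0.0411). Cyp2c40 and Cyp2c69, which belong to the same list, were among the largest falls. Cyp2c40 was at 43.3, 91.5 and 77.7 FPKM and then at 6.26, 0.125 and 4.64 FPKM (-4.26, adjusted p = 0.0319), and Cyp2c69 at 22.6, 32.4 and 41.4 FPKM and then at 1.95, 0 and 1.08 FPKM (-4.14, adjusted p = 0.0123). These 2 are close copies of each other, and reads may have been split between them. Cyp2b9 and Cyp2a4, called higher without replicate 2 only, were listed at 0 in replicate 2 and reached 25.9 and 68.5 FPKM in replicate 3. The labels do not give the sex of the mice. All 4 Y-linked genes examined passed the filter, and 0 were called either way. They summed to 49.3, 66.7 and 46.2 FPKM in normal liver and to 34.0, 47.0 and 45.9 FPKM in PHX-D3, so each sample held RNA from male mice.

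Cytochrome P450 enzymes oxidise drugs, steroids and fatty acids, and their values depended on replicate 2. Of 45 that passed, 1 rose and 7 fell, and 6 were called higher and 9 lower without replicate 2. The median change was -0.84 with 6 samples and -0.28 without replicate 2, where the samples stood at -0.33, -2.0 and -0.38. Besides the genes above, Cyp2u1 fell by 2.04, Cyp4b1 by 1.22, Cyp4f13 by 1.08 and Cyp2d10 by 1.04. Cyp4b1 was at 12.6, 9.7 and 11 FPKM and then at 3.89, 4.38 and 4.2 FPKM, and Cyp2d10 at 525, 511 and 538 FPKM and then at 232, 287 and 250 FPKM, so that in both the 3 PHX-D3 samples lay close together. Cyp4a31, a fatty acid hydroxylase under the receptor PPARA, rose from 2.44, 3.87 and 1.69 FPKM to 28.2, 14.5 and 14.2 FPKM (2.42, adjusted p = 0.0237). Its neighbour Cyp4a14, at 22.8, 96.0 and 26.3 FPKM and then at 414, 135 and 127 FPKM, was called without replicate 2 only (2.53, adjusted p = 0.0189). Cyp3a11 was at 4201 and 3797 FPKM in replicates 1 and 3 and at 487 FPKM in replicate 2, against 2334 to 3459 FPKM in normal liver.

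Other hepatocyte functions showed few calls. Of 36 genes of phase II conjugation, 1 rose and 4 fell (3 and 7 without replicate 2). Ugt2b38, a glucuronosyltransferase, fell by 2.44, Sult5a1, a sulfotransferase, by 2.49 and the glutathione transferases Gstm6 and Gstm4 by 1.55 and 1.29, while Nnmt, which methylates nicotinamide, rose from 77.5, 104 and 106 FPKM to 264, 285 and 178 FPKM (1.31, adjusted p = 0.0378). Of 25 genes of bile acid synthesis and transport, 0 rose and 1 fell, Hsd3b7, which acts early on the sterol ring, from 359, 331 and 346 FPKM to 142, 112 and 139 FPKM (-1.4, SE 0.18, adjusted p = 0.0233). Cyp7a1, the rate-limiting enzyme of that route, was at 27.5, 13 and 44.8 FPKM and then at 10.9, 0 and 96.8 FPKM, a spread in which no direction could be read (adjusted p = 0.575). Cyp8b1, which makes cholic acid, was called lower without replicate 2 only, from 204, 139 and 146 FPKM to 60.6 and 81.0 FPKM (-1.19, adjusted p = 0.00511). Of 41 genes of the urea cycle and amino acid breakdown, 2 fell, Cbs and Agxt, by 1.35 and 1.26, and Agxt was not called without replicate 2 (-0.98). Csad, which makes hypotaurine on the way to taurine, fell from 76.7, 114 and 78.9 FPKM to 18, 4.25 and 15 FPKM (-2.93, SE 0.48, adjusted p = 0.0319).

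In lipid metabolism the calls were few and mixed. Of 27 genes of fatty acid oxidation and ketogenesis, 2 rose. Acot2, a mitochondrial thioesterase, was at 1.18, 1.12 and 0.581 FPKM and then at 12.6, 21.1 and 3.99 FPKM (2.56, adjusted p = 0.0413), and Cpt1a, which admits fatty acids to mitochondria, was at 73.4, 61.4 and 49.7 FPKM and then at 127, 178 and 118 FPKM (1.18, adjusted p = 0.0411). Cpt1a was not called without replicate 2, at 1.00. Cd36, a fatty acid receptor, rose by 1.44 (adjusted p = 0.0348). Apoa2, of high-density lipoprotein, fell from 6267, 7958 and 7160 FPKM to 2894, 1804 and 2594 FPKM (-1.57, adjusted p = 0.0413). Of 24 genes of sterol synthesis 0 were called with 6 samples, and 1 higher and 5 lower without replicate 2, in which the list stood at 0.58, above replicates 1 (-0.82) and 3 (-0.19). The pair that shows this split is Mvd, at 5.41 and 7.24 FPKM in replicates 1 and 3 and at 35.6 FPKM in replicate 2, and Hmgcs1, at 46.9 and 92.4 FPKM and at 321 FPKM, against 20.7 to 38.5 FPKM and 114 to 163 FPKM in normal liver. Serpina12, the adipokine vaspin (chr12:104028769-104044443), fell in all 3 replicates alike, from 20.8, 19 and 29.0 FPKM to 1.15, 1.56 and 0.448 FPKM (-3.56, SE 0.26, adjusted p = 0.00602).

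Among 37 complement and coagulation genes, 3 rose and 1 fell. C3, the central component of complement, was at 1306, 1131 and 1404 FPKM and then at 4979, 5015 and 3320 FPKM, a rise of 1.77 (SE 0.29, adjusted p = 0.0317). Pros1, protein S, an anticoagulant, rose by 1.56. C8g, a subunit of the terminal complex, fell by 1.4 (adjusted p = 0.0374). Of the other secreted proteins, 0 of 17 were called.

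Clock genes moved in part. Nr1d1, the repressor REV-ERB alpha (chr11:98767932-98775333), fell from 38.1, 42.0 and 47.3 FPKM to 2.32, 4.85 and 4.85 FPKM, a change of -3.16 (SE 0.25, adjusted p = 0.00761), or -3.30 without replicate 2. Per1 and Cry1, inhibitors of the clock's activators, rose by 1.61 (adjusted p = 0.0226) and 1.52 (adjusted p = 0.0212). Cry1 was at 2.76, 1.62 and 1.69 FPKM and then at 7.96, 7.59 and 7.06 FPKM. Dbp, a clock output, was at 32.5, 79.5 and 48.7 FPKM and then at 5.27, 1.97 and 22.9 FPKM, and was called without replicate 2 only (adjusted p = 0.0696 and 0.0202). In Per1 and Cry1 replicate 2 lay between the other PHX-D3 replicates, and in Nr1d1 it was level with replicate 3. The labels give no time of day for any sample, so the hour of sampling and the day after the operation cannot be told apart.

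Among markers of other cells of the liver, calls with 6 samples were made in the MHC class II list and, in the pancreatic acinar list, of Cela1 (-1.84). Of the 6 MHC class II and dendritic cell genes that passed, 0 rose and 3 fell, and 4 were called lower without replicate 2. Cd74, the invariant chain, was at 46.5, 59.8 and 93.5 FPKM and then at 15.3, 10.4 and 17.4 FPKM, a change of -2.10 (SE 0.30, adjusted p = 0.0268). H2-Ab1 was at 15.5, 19 and 31.8 FPKM and then at 6.78, 2.37 and 7.08 FPKM (-1.89, adjusted p = 0.0448), and H2-Eb1 fell by 1.87 (adjusted p = 0.0413). In each the groups did not overlap. The summed level of the 12 genes of that list was 93.1 to 184 FPKM in normal liver and 17.5 to 38.8 FPKM in PHX-D3. The 13 Kupffer cell markers all passed and 0 were called with 6 samples, with a sum of 403 to 538 FPKM in normal liver and 333 to 671 FPKM in PHX-D3. Their defining gene Clec4f was at 37.5, 60.4 and 53.9 FPKM and then at 33.7, 34.1 and 25.8 FPKM (-0.66, adjusted p = 0.105). Marco, a scavenger receptor of the same list, was called higher without replicate 2 only, at 37.1 and 20.6 FPKM against 4.2 to 6.99 FPKM in normal liver.

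The remaining marker lists bear on the rises above. Neutrophil markers summed to 2.22 to 7.93 FPKM in normal liver and to 14.9, 43.4 and 8.34 FPKM in PHX-D3, and S100a9 was at 8.32, 16.8 and 4.68 FPKM. Lcn2, which neutrophils also make, was at 1710, 6557 and 331 FPKM in the same 3 samples, and the part of these cells in its rise was not tested. All 3 of these neutrophil sums lay above the normal livers, but the markers did not all follow. Of the 11 neutrophil markers 2 passed the filter, of which 0 were called with 6 samples and 1 was called higher without replicate 2. Over all 11, 6 had a positive change with 6 samples, and 5 were higher in each PHX-D3 sample than in every normal liver. Of the 21 stellate and fibroblast markers, 13 were higher in each PHX-D3 sample than in every normal liver (16.4% of all 17473 genes) and 1 was lower in each. Of the 18 that passed, 0 were called with 6 samples and 1 was called lower without replicate 2. Their median was 0.54, or 0.34 without replicate 2, in which it stood at 1.05 against 0.25 and 0.37. Of the 17 sinusoidal endothelial markers, 16 passed and 0 were called either way. Monocyte and macrophage markers summed to 97.3 to 142 FPKM in normal liver and to 134, 563 and 101 FPKM in PHX-D3, cholangiocyte markers to 45.0 to 53.0 FPKM and then to 66.2, 160 and 53.3 FPKM, and red blood cell markers to 99.3 to 158 FPKM and then to 113, 318 and 48.2 FPKM. In these 3 lists the sum was the highest of the 6 samples in replicate 2. A sum follows the members of highest level, and Spp1 is counted in both the monocyte and the cholangiocyte list. Of the 10 cholangiocyte markers 4 had a positive change with 6 samples, and the median over all 10 was -0.03. Of the 14 monocyte and macrophage markers 12 had a positive change, and the median over all 14 was 0.81, or 0.16 without replicate 2. Red blood cell markers did not move together, and 5 of the 7 that passed had a positive change with 6 samples. Hbb-bs was at 32.1, 168 and 7.93 FPKM in PHX-D3. Alas2 was at 77.6, 83.0 and 76.1 FPKM and then at 33.4, 4.34 and 22.0 FPKM, lowest in replicate 2. It was called lower without replicate 2 only (-1.51, adjusted p = 0.000907). T cell and natural killer cell, mesothelial and skeletal muscle markers summed to at most 4.88 FPKM in any of the 6 samples. The 18 mitosis genes rose in whole liver, and which cells carried them was not tested.

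Vim, the intermediate filament of mesenchymal cells, rose from 11, 8.88 and 10.5 FPKM to 24.5, 43.5 and 24.1 FPKM (1.46, adjusted p = 0.0347), and Tubb6, a beta tubulin, rose by 1.98 (adjusted p = 0.0292). Golm1, a Golgi protein of the fetal liver, rose from 0.921, 0.811 and 1.26 FPKM to 4.79, 3.16 and 5.61 FPKM (1.45, adjusted p = 0.0268). Asns, asparagine synthetase, a target of the amino acid response, rose from 1.5, 3.39 and 2.33 FPKM to 9.54, 23.6 and 11.4 FPKM (2.15, adjusted p = 0.0328). Vim and Tubb6 belong to a list of tubulin, actin and annexin genes whose median was 0.41, or 0.06 without replicate 2, and Asns to a list of endoplasmic reticulum stress genes whose median was 0.13. Of the 23 transcription factors of hepatocyte identity, 0 were called with 6 samples, and Esr1 and Onecut1 were called higher and Nr0b2 lower without replicate 2. Hnf4a was at 164, 87.2 and 117 FPKM and then at 189, 171 and 195 FPKM (0.63, adjusted p = 0.149), and Cebpa at 191, 252 and 208 FPKM and then at 118, 45.7 and 164 FPKM (-1.16, adjusted p = 0.141). Ribosome biogenesis genes, 37 of which passed, had 0 calls with 6 samples and 0 without replicate 2.

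The 5 genes in which replicate 2 lay highest above replicates 1 and 3, and the 5 in which it lay lowest, are given as a description with no test. Cd14, the co-receptor for endotoxin, was at 225 FPKM in replicate 2 and at 2.48 and 1.31 FPKM in the others. Apoa4 was at 18018 FPKM against 242 and 301 FPKM, the lipid droplet protein Cidec at 191 FPKM against 2.12 and 1.29 FPKM, the fasting hormone Fgf21 at 69.5 FPKM against 1.2 and 0.264 FPKM, and Igfbp1 at 2272 FPKM against 99.5 and 30.2 FPKM. At the other end, Car3 was at 0.0226 FPKM against 335 and 757 FPKM, Cyp1a2 at 0.0642 FPKM against 230 and 226 FPKM, Akr1c6 at 0.873 FPKM against 621 and 808 FPKM, Inmt at 1.1 FPKM against 347 and 668 FPKM and Ces1d at 0.989 FPKM against 297 and 367 FPKM. Some of these genes also stood far from normal liver early after the operation. At 6 h, Igfbp1 was between 1017 and 1701 FPKM and Cidec between 75.7 and 103 FPKM, and at 24 h Car3 was between 10.4 and 51.2 FPKM and Inmt between 25.5 and 70.0 FPKM, whereas Akr1c6 at 24 h was between 920 and 1456 FPKM. Fgf21 in replicate 2 was above all other 17 liver samples, where it was at most 3.25 FPKM. Immediate early genes were higher in replicate 2 as a list, at 2.34 against 0.42 and 0.53, with Atf3 at 26.5 FPKM against 2.32 and 1.62 FPKM and Ier3 at 67.7 FPKM against 1.58 and 0.749 FPKM. Jun, of the same list, rose with 6 samples (1.15, adjusted p = 0.0431) and was not called without replicate 2, at a change of 0.91.

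**Figure D4:**
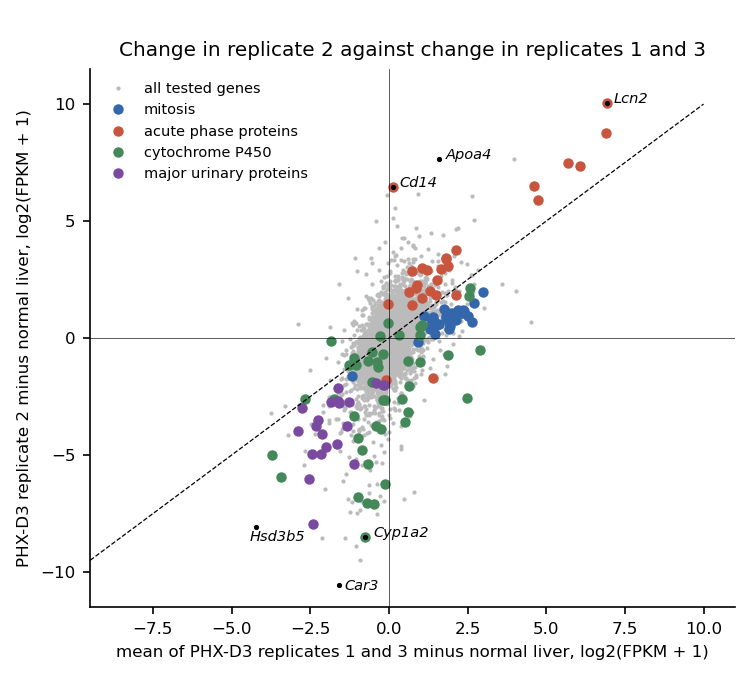
Change against normal liver in PHX-D3 replicate 2 (vertical) and in the mean of replicates 1 and 3 (horizontal), as log2(FPKM + 1), for the 10304 genes tested. Along the dashed line both are equal. Mitosis genes, apart from Pttg1, lie to the right of 0 and mostly below the line. Acute phase proteins lie mostly above it, and cytochrome P450 genes run down to Cyp1a2, at 0.0642 FPKM in replicate 2.

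Day 3 was also set against the livers taken 24 h and 7 days (PHX-D7) after the same operation in mice of the same strain, in 1 fit over all 18 liver samples, to see what was particular to it. Both comparisons use the same 3 PHX-D3 samples. Against 24 h, 221 genes (2.14% of those tested) were higher and 177 (1.72%) lower, 398 (3.86%) in all, and the counts were 376 and 222 without replicate 2. Against day 7, 142 (1.38%) were higher and 620 (6.02%) lower, 762 (7.4%) in all, and the counts were 165 and 643 without replicate 2. The list counts that follow, and the genes set apart from both times, include replicate 2. They were not repeated without it. Of the 33 mitosis genes, 28 were higher than at 24 h and 0 lower, and 6 were higher than at day 7 and 1 lower, but 19 of them had passed the filter through PHX-D3 alone. Of the 14 that passed with a normal liver sample, 11 were higher than at 24 h and 2 higher than at day 7. Of the 35 DNA replication genes, 2 were higher than at 24 h and 0 differed from day 7. Acute phase proteins ran the other way, with 0 higher and 6 lower than at 24 h and 14 higher than at day 7. Sterol synthesis genes, none of which differed from normal liver with 6 samples, were higher than at 24 h in 18 of 24. Immediate early genes were lower than at day 7 in 10 of 13, and so were 12 of 13 Kupffer cell markers and all 6 MHC class II genes that passed. Cd74 was at 545 to 734 FPKM at day 7.

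In 17 genes PHX-D3 was higher than both 24 h and day 7, and in 16 it was lower than both. Of the former 8 were also higher than in normal liver, and they were Ccnb1, D17H6S56E-5, Ect2, Isyna1, Mki67, Mtnr1a, Pbk and Pck2, of which Pck2 was not called against normal liver without replicate 2 (0.94). Of the latter 6 were also lower than in normal liver, and they were Cyp4a12a, Eif4a2, Gbp6, Gm561, Nr1d1 and Serpina12, of which Gbp6 was not called against normal liver without replicate 2 (-0.93). Ccnb1 and Mki67 had passed the filter through PHX-D3 alone, so that they had to lie above normal liver. Ccnb1 was at 0 to 0.224 FPKM at 24 h and at 2.02 to 2.41 FPKM at day 7, below the lowest PHX-D3 value of 2.95 FPKM. Serpina12 was at 6.54 to 7.27 FPKM at 24 h and at 3.37 to 4.06 FPKM at day 7, above the highest PHX-D3 value of 1.56 FPKM. Ube2c and Foxm1 were higher than at 24 h, by 2.94 and 1.48, but their differences from day 7 did not pass the test (limma, adjusted p = 0.0928 and 0.0527). Nr1d1 was at 7.88 to 11.8 FPKM at 24 h and at 28.1 to 29.9 FPKM at day 7. In Ccnb1, Serpina12 and Nr1d1 day 3 held the extreme of the 3 groups compared, although Nr1d1 at 6 h, from 1.51 to 4.04 FPKM, was as low as on day 3. Lcn2 was at 2582 to 5470 FPKM at 24 h and at 215 to 329 FPKM at day 7. On day 3 replicate 2 lay above all 24 h samples and the other PHX-D3 replicates below them. The difference of day 3 from 24 h did not pass the test (limma, -1.36, adjusted p = 0.171). Hsd3b5 was low from 6 h, where it was between 1.71 and 4.98 FPKM, and reached 48.5 to 167 FPKM at day 14.

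**Figure D5:**
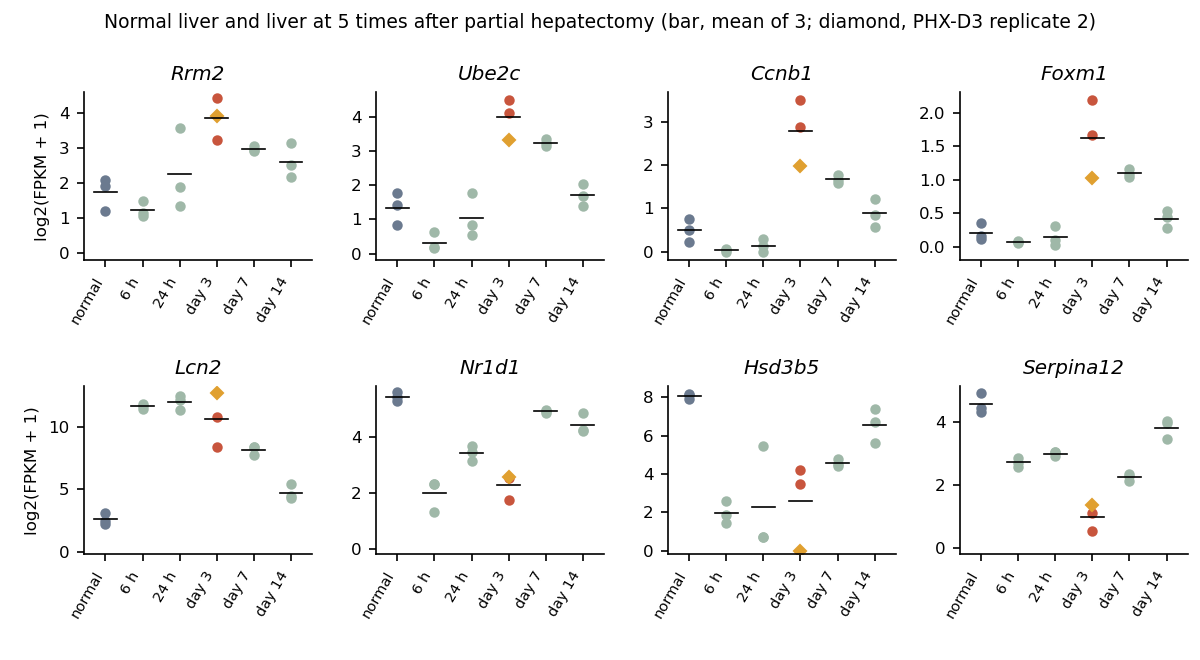
Values of 8 genes as log2(FPKM + 1) in normal liver and in liver at 5 times after partial hepatectomy, 3 samples each, with the mean as a bar. Ube2c, Ccnb1 and Foxm1 have their highest means on day 3, where Ccnb1 is at 2.95 to 10.3 FPKM, and Serpina12 is lowest there, at 0.448 to 1.56 FPKM.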

How the data were processed

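RNA of whole liver was sequenced as poly(A) messenger RNA. Per the labels' processing notes reads were mapped with TopHat 1.4.1 to mm10 and gene levels made with Cufflinks 1.3.0. The deposited table held 1 value per gene and sample, with no unit in its labels, read here as FPKM of the authors with no further scaling. Whole reads could be recovered for all 17331 genes above 0 (tolerance 0.05 reads), which gives the depth, 52.7 to 74.9 M (mega) reads on genes in the 6 samples. The table had 17475 rows, of which 2 repeated a symbol and were averaged, 25 had symbols turned into dates, and 0 were mitochondrial genes. Columns of the authors' own comparisons were not used.

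Values were tested as log2(FPKM + 1) in limma 3.58.1 (R 4.3.3, with trend) and Benjamini-Hochberg adjustment over 10304 genes, first with 6 samples and then with the 5 left without PHX-D3 replicate 2, a choice made because that library stood apart. PHX-D3 was set against 24 h and day 7 in 1 fit over 18 samples. The added 1 shrinks the fold change of genes near or below 1 FPKM. Samples of the same number did not deviate together (r 0.0017, -0.026 and -0.034), so no pairing was used. Steps were tested on simulated data. Other tools were Python 3.11.15 with numpy 2.4.6, pandas 2.3.3 and matplotlib 3.10.9.

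Members and gene lists were chosen with earlier results of these data known. Genes were named by a rule, namely the 4 factors the study followed, the 10 largest rises and falls among called genes whose groups did not overlap, from each list the 2 largest rises and the 2 largest falls (with no call, the 2 genes of highest level), the first 3 markers of each cell type, and the 5 genes highest and the 5 lowest in replicate 2 against the others. Other genes named were chosen after their values were seen. A called gene of the complement and coagulation list is not reported here. Gene positions came from GENCODE on GRCm38 and promoters from RefSeq on GRCm38.p6, which held 8054 of the 10304 genes. Alternatives were another pseudocount, filter, scaling, fold threshold, sample weight, replicate block, reads in voom, and leaving out samples.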

Additional observations from a re-analysis of the deposited data

Results flagged for a closer look

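In 8 of the genes named by rule, PHX-D3 differed from both the 24 h and the day 7 livers in the same direction, each difference called in limma over 18 samples with Benjamini-Hochberg adjustment. They are given as log2 differences from 24 h and then from day 7. Ccnb1, which had passed the filter through PHX-D3 alone, was higher by 2.64 (adjusted p = 4.53e-05) and 1.11 (0.00612). D17H6S56E-5 was higher by 2.34 (adjusted p = 0.00248) and 1.43 (0.0265), and Isyna1 by 1.90 (adjusted p = 0.00299) and 2.27 (0.000502). Fads2, the delta-6 desaturase of fatty acids, was higher by 1.28 (adjusted p = 0.000785) and 1.17 (0.000672). Pck2, the mitochondrial PEP carboxykinase, was higher by 1.83 (adjusted p = 7.86e-05) and 1.00 (0.00161). Nr1d1 was at -1.16 (adjusted p = 0.0067) and -2.64 (4.03e-06), and Serpina12 at -2.0 (adjusted p = 4.25e-05) and -1.25 (0.000302). Oat, ornithine aminotransferase, was at -1.45 (adjusted p = 0.00236) and -1.11 (0.00809). The 2 differences share the PHX-D3 samples. Groups of 3 are too small for the rule on single samples that stand apart.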

How the results depend on the processing

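Over all genes, direction was checked only with and without replicate 2, where 0 had opposite calls. Of the genes named by rule, no called gene turned its direction under any alternative of the comparison with normal liver. Values with no call did: without PHX-D3 replicate 2 the medians of lipid droplet (0.31 to -0.05), complement (-0.39 to 0.01), secreted protein (-0.33 to 0.01) and periportal genes (-0.09 to 0.05) changed sign, and so did uncalled genes such as Cidec (2.00 to -0.05), Ces1d (-1.97 to 0.49) and Fgf21 (1.39 to -0.41). With 6 samples (302 genes, 188 higher and 114 lower) leaving out 1 sample gave 0 to 474 genes, 0 to 307 higher and 0 to 167 lower. The count was 36 with no filter (20 and 16), 633 with all liver groups in 1 fit (355 and 278), 498 with sample weights (300 and 198), 589 with no fold threshold (328 and 261), 586 at 1.5-fold (327 and 259), 63 at 4-fold (36 and 27) and 667 by non-overlap and 2-fold (370 and 297), and 120 were higher with the filter at 5 FPKM. With the replicate block it was 17 (8 and 9), although the numbers did not pair the samples. Without PHX-D3 replicate 2 (474 genes, 307 and 167), leaving out a further sample gave 416 to 572, 272 to 387 higher and 144 to 263 lower. There the count was 728 with a pseudocount of 0.1 (468 and 260), 756 with voom on recovered reads (493 and 263), 2133 with no fold threshold (1022 and 1111), 1621 at 1.5-fold (843 and 778) and 83 at 4-fold (55 and 28), with 176 higher at the 5 FPKM filter and 98 lower with no filter. Against 24 h it was 681 with a pseudocount of 0.1 (446 higher) and 598 without PHX-D3 replicate 2 (376 higher), and against day 7 285 were higher with that pseudocount and 262 after quantile normalization. The median of DNA replication genes was 0.215 with the 5 FPKM filter, and that of mitosis genes 2.47 with a pseudocount of 0.1 and 2.60 with voom. Leaving out 1 sample, list medians ranged from 0.43 to 0.70 for DNA replication, 1.21 to 1.91 for mitosis, -1.11 to -0.28 for cytochrome P450, -2.98 to -1.91 for major urinary proteins, 1.5 to 2.28 for acute phase proteins and -2.80 to -1.38 for male-biased genes. Of 122 named genes, 61 kept their side of the threshold without normal liver replicate 1 and 108 without PHX-D3 replicate 2. The cause was not tested. With 3 samples a group, and 2 without replicate 2, small differences in genes near 1 FPKM could not be seen.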
